A study of Mus musculus with 72 samples.

Results

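The 39 genes described here are interferon-stimulated genes, the transcripts that a cell makes after it has sensed interferon. They were listed by name from knowledge of the pathway, with earlier results of these data known, and looked up in the gene annotation of the arrays, where the earlier symbol of a gene was accepted. Each member was read from its brightest probe. All 39 were among the 31131 genes with a probe, and 38 of them were among the 16098 genes that passed a filter on detection and were tested. The member that did not pass was Ifi44, whose probe was above background on 54 of 72 arrays. Of the members tested, 36 were above background on every array, the least often detected was Mx2 with 69 arrays, and no array was saturated at any of them.

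Interferons bind receptors on the cell surface, and the receptors' kinases activate a transcription factor complex that holds STAT2 and IRF9. The complex binds the interferon-stimulated response element (ISRE) in the promoters of its targets. The targets include sensors of foreign nucleic acid, enzymes and membrane proteins that block virus replication, and factors that raise or shut off the signal. Leukocytes express the pathway, and a raised level of these genes in blood is a familiar sign of virus infection and of some autoimmune diseases.

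The measurements came from peripheral blood of male C57BL/6 mice irradiated at 8 to 10 weeks of age. Mice were sham-irradiated (Control) or received 0.25 Gy of neutrons (Neutron_0.25Gy), 1 Gy of neutrons (Neutron_1Gy), 1 Gy of x-rays (X-ray_1Gy) or 4 Gy of x-rays (X-ray_4Gy). The neutrons were delivered as a mixed beam that also held γ rays. Blood was taken by cardiac puncture into an RNA stabilising solution at day 1, 3 or 7, and each of the 72 arrays held the globin-reduced RNA of 1 mouse. Control blood was available from 5 mice at day 1, 5 at day 3 and 6 at day 7. After 0.25 Gy of neutrons there were 6, 6 and 5 mice at days 1, 3 and 7, and after 1 Gy of x-rays 6, 5 and 5. The groups with 1 Gy of neutrons had 6 mice at day 1 and 6 at day 7, and those with 4 Gy of x-rays 5 and 6, with no day 3 group analysed here. No transgene or deletion was named for any mouse. The sham-irradiated mice of the same day were the controls for every exposure, neutrons and x-rays alike. They were held on the neutron wheel with the beam off, and no separate sham for the x-ray machine was described.

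Because the ISRE is the element through which these genes answer interferon, the 250 bases before the transcription start were searched for its core. Promoters of 29 of the 39 members were found in RefSeq's mouse table (build GRCm38.p6), and those of Mx1, Mx2, Oas2, Usp18, Dhx58, Ifi27l2a, Zbp1, Parp9, Parp14 and Rtp4 were not. The core was written as GAAA, any 2 bases and GAAA, and on either strand it occurred in 10 of the 29 members (34.5%) and in 936 of 27025 genes in the table (3.46%). The upstream bases of Ifit3, Isg15 and Rsad2 are printed because these genes carry the contrast described below. Ifit3 had the largest rise at day 1, whereas Isg15 and Rsad2 were not raised then and were among the members with the largest rises at day 7. Each run reads 5′ to 3′ along the gene and ends at the base before the start, with matches to the ISRE core, or to its reverse complement, in capitals.
Ifit3, chr19:34583279-34583528, plus strand: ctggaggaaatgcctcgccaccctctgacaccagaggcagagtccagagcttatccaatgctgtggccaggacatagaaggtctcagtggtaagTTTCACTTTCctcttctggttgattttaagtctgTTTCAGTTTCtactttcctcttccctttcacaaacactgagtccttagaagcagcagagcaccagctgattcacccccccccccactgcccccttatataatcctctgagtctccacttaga
Isg15, chr4:156200819-156201068, minus strand: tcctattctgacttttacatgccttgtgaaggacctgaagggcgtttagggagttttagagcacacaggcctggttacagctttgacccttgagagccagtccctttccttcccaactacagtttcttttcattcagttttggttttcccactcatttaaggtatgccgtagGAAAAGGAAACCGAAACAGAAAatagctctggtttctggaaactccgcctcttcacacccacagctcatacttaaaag
Rsad2, chr12:26456453-26456702, minus strand: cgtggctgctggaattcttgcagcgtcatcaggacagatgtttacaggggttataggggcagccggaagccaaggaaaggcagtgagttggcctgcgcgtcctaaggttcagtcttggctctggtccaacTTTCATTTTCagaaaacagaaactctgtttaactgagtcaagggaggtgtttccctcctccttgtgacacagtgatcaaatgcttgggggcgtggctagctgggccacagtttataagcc

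Ifit3 held 2 separate matches, the nearest beginning 122 bases before the start. Isg15 held 3 that overlapped each other, and Rsad2 held 1. The same core stood in other members with very different behaviour at day 1, shown as windows of 30 bases with every match that lies whole in the window in capitals. Those of Oas1a and Bst2 hold 2 overlapping matches each.
Ifit1, chr19:34640794-34640823, plus strand: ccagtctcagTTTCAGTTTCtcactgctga
Oas1a, chr5:120907526-120907555, minus strand: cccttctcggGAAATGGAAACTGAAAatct
Oas3, chr5:120777715-120777744, minus strand: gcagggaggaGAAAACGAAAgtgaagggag
Bst2, chr8:71537583-71537612, minus strand: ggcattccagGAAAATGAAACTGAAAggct
Stat2, chr10:128270266-128270295, plus strand: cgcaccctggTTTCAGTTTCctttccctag
Gbp2, chr3:142620594-142620623, plus strand: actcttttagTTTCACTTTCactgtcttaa

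Among members with a promoter, 5 of the 18 called after 1 Gy of neutrons at day 1 held the letters, and 5 of the 10 not called held them. Presence of these letters therefore did not sort the members by their response at day 1. A match describes letters in a window and is not evidence of a bound site.

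**Figure D1:**
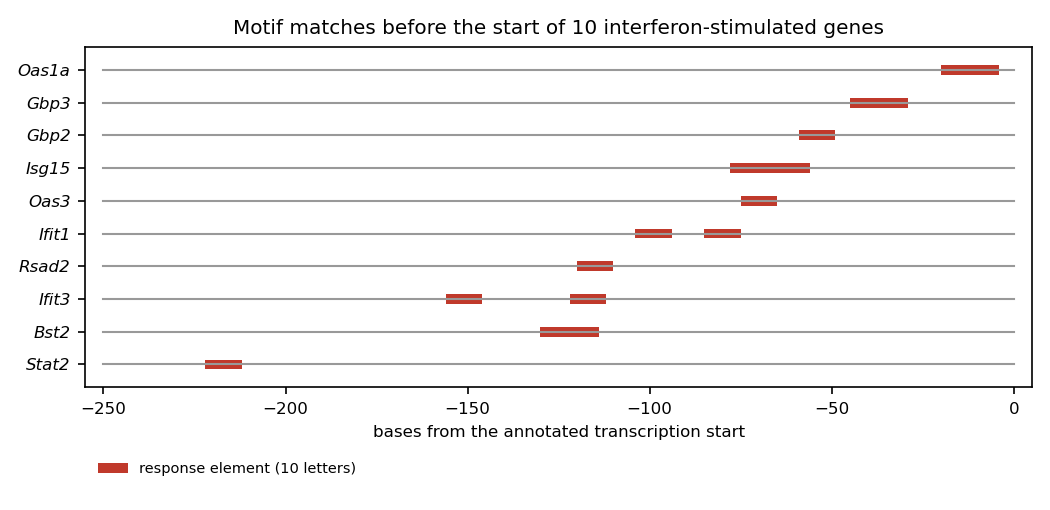
Position of matches to the ISRE core (either strand) in the 250 bases before the transcription start of the 10 members that held the ISRE core, with the distance from the start in bases on the horizontal axis. Ifit3, Isg15 and Rsad2 all held ISRE letters. At day 1 after 1 Gy of neutrons Ifit3 was called higher, and Isg15 and Rsad2 were not.

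Levels are given as log2 intensity relative to the median detected probe of the same array, so 0 is that median and negative values lie below it. A level of 1 probe cannot be set against that of another. Differences are log2 fold changes against the sham-irradiated mice of the same day, with a standard error (SE). A gene was called where limma gave a p below 0.001 and a false discovery rate below 0.05 over all 16098 genes, and adjusted p values are those of limma. All exposures of a day were compared with the same control mice, so their values are not independent of each other. Between 40.2% and 67.3% of the spots of an array were well above background. The lowest shares were those of 1 Gy of neutrons at day 7, at 40.2% to 50.3%, where the median intensity was 9.52 to 16.8 against 32.2 to 50.5 in the controls of that day. Samples were taken from the per-array files and their labels. A second source, the deposited table of log2 values, did not follow those labels, since 60 of its 72 columns matched the array of another sample and 21 of these the array of another group. Taken by its own column names that table gave 22 members called at day 1 after 1 Gy of neutrons, 8 after 4 Gy of x-rays and 0 after 1 Gy of x-rays, against the array counts given next. Since blood was profiled as a whole, fewer cells of a type and less RNA per cell cannot be told apart.

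One day after 1 Gy of neutrons, 28 of the 38 members were called higher and 0 lower, or 73.7%, where 16.3% of all genes were called (5.62% higher and 10.7% lower). The median member was 1.32 higher, while the median gene moved by -0.08. The 4 Gy x-ray mice had 18 members called higher and 2 lower (52.6%), where 29.4% of all genes were called (12.8% higher, 16.6% lower). The members' median was 1.10. After 1 Gy of x-rays 5 were called higher and 3 lower (21.1%), where 6.47% of all genes were called (2.66% higher, 3.81% lower), with a median of 0.40. After 0.25 Gy of neutrons limma and the random variance test each called 0, while 11 had an unadjusted p below 0.05, the median was 0.21, and 0.00621% of all genes, 1 gene, was called. In the neutron comparison at 1 Gy, 29 members had all irradiated mice above all controls, and 19.5% of all genes did not overlap in either direction. After 4 Gy of x-rays 23 members lay above all controls and 2 below, where 38.6% of all genes did not overlap. After 1 Gy of x-rays 4 lay above and 3 below, where 8.89% of all genes did not overlap. Of the 28 members called after 1 Gy of neutrons, 18 were also called under every other setting tried and with each mouse left out. The corresponding number was 5 of 20 after 4 Gy of x-rays and 0 of 8 after 1 Gy of x-rays. With normexp background correction, where the share of all genes called is not given, the counts were 18, 5 and 0. Scan date also bore on them, since 4 of the 6 neutron arrays shared a date with the day 1 controls and 0 of the 6 and 0 of the 5 x-ray arrays did. A fixed block for the date gave 26 members called after neutrons. As a random block it gave 22 after 4 Gy and 0 after 1 Gy of x-rays. That block does not separate date from exposure, because no date held both x-ray and control arrays. Without control replicate 1, 3 or 5 the 4 Gy count was 13. The 1 Gy x-ray count was 5 without control replicate 1 or 3 and 4 without replicate 5.

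**Figure D2:**
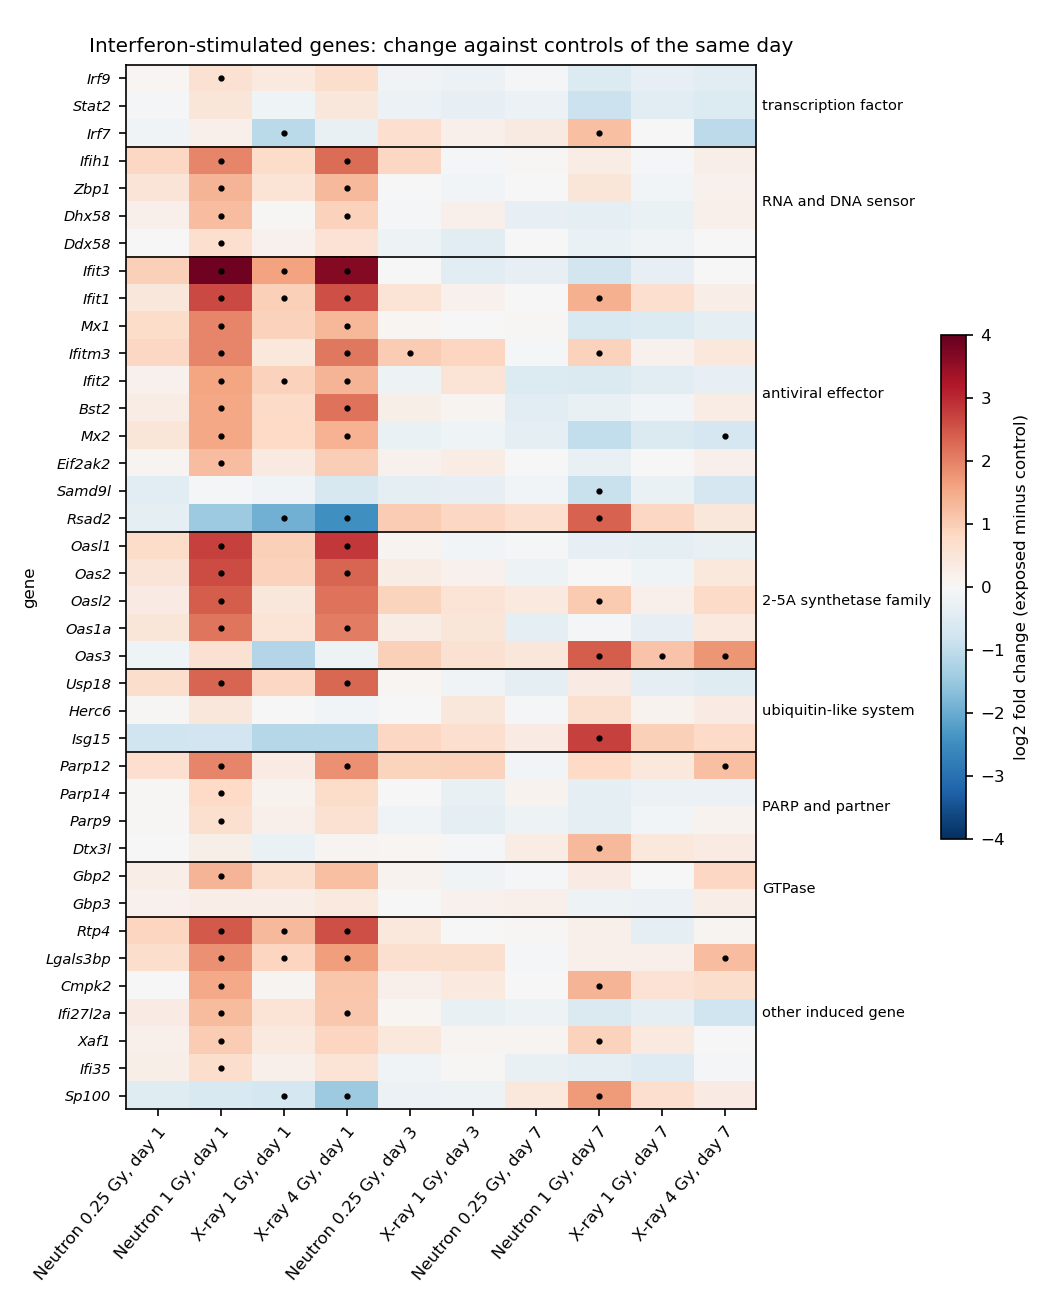
Log2 fold changes of the 38 tested members (vertical, grouped by role) in the 10 comparisons with control mice of the same day (horizontal), coloured from lower (blue) to higher (red), with a dot on called values. The columns for day 1 after 1 Gy of neutrons and 4 Gy of x-rays hold 28 and 18 members called higher, and the day 7 columns hold fewer, led by Isg15, Oas3 and Rsad2.

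Among the factors that carry the signal, IRF9 gives the complex its DNA-binding specificity. Irf9 had levels of 3.18, 3.38, 3.09, 3.10 and 3.04 in the day 1 controls. The lowest, median and highest were 3.54, 3.79 and 3.91 after 1 Gy of neutrons. The ranges did not overlap, and the difference of 0.60 (SE 0.12) was called (adjusted p = 0.00361), but only in 3 of 11 other settings. The 4 Gy x-ray mice had Irf9 at 3.54, 3.56, 3.68, 4.52 and 3.94, also above every control, and its difference of 0.69 (SE 0.20) was not called (adjusted p = 0.0128). Stat2, which encodes another part of this complex, was at 2.14, 2.12, 2.21, 2.04 and 1.94 in controls and at 2.34, 2.60 and 2.79 (lowest, median, highest) after neutrons. These did not overlap either, and the difference of 0.48 (SE 0.13) was not called (adjusted p = 0.011). Irf7 encodes the factor that amplifies interferon transcription itself, and it did not follow the other members. Its controls were at 1.83, 1.42, 1.90, 2.62 and 2.11, and the mice given 1 Gy of neutrons had 1.68, 1.99 and 3.18, with overlap. In the 1 Gy x-ray mice Irf7 was at 0.31, 0.82 and 1.64, and it fell by 1.08 on the log2 scale (SE 0.25, adjusted p = 0.0152). That call held in only 3 of 12 other settings and 2 of 11 leave-one-out fits.

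The cytosolic sensors rose as a group after 1 Gy of neutrons, with 4 of 4 called higher: Ifih1 and Ddx58, which encode the double-stranded RNA receptors MDA5 and RIG-I, Dhx58, their relative LGP2, and Zbp1, which binds Z-form nucleic acid. Ifih1 had control levels of -0.26, -0.12, -0.28, 0.63 and -0.28. After neutrons the lowest, median and highest were 1.71, 1.90 and 2.11, and after 4 Gy of x-rays the mice had 1.55, 2.14, 2.39, 2.76 and 2.07. Neither exposed group overlapped the controls. The differences were 1.96 (SE 0.18, adjusted p = 6.9e-05) and 2.25 (SE 0.25, adjusted p = 6.1e-05). Ddx58 moved less. Its controls lay between 2.02 and 2.18 and the neutron mice at 2.50, 2.69 and 3.17, a difference of 0.68 (SE 0.14, adjusted p = 0.00357). That call held in only 4 of 12 other settings and 5 of 11 leave-one-out fits, and the other probe of Ddx58, at 0.34, was not called. After 4 Gy of x-rays 3 of the 4 sensors were called higher and Ddx58, at 2.38, 2.41, 2.44, 3.45 and 2.66, was not. The call of Dhx58 there (0.91, adjusted p = 0.00327) was lost in all 10 leave-one-out fits and held in 3 of 12 other settings. None of them was called after 1 Gy of x-rays.

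Of 10 antiviral effectors tested, 8 were called higher after 1 Gy of neutrons. Ifit3, whose product belongs to a family that binds foreign RNA, had the largest rise of any member. It was at 0.34, 0.91, 0.57, 1.51 and 0.13 in the controls. The mice given neutrons had 4.15, 4.70 and 4.94 as lowest, median and highest, and the mice given 4 Gy of x-rays had 4.52, 3.54, 3.70, 5.57 and 4.45. Every mouse of both groups was well above every control. The differences were 3.91 (SE 0.25, 15-fold, adjusted p = 2.2e-05) and 3.66 (SE 0.38, 12.7-fold, adjusted p = 3.9e-05). Ifit3 also rose by 1.61 (SE 0.29, adjusted p = 0.00557) after 1 Gy of x-rays, where the mice had 1.72, 2.25 and 3.05. After 0.25 Gy of neutrons they had 0.70, 1.75 and 2.10, overlapping the controls. Its relative Ifit1 was at -0.49, -0.08, -0.22, 0.40 and -0.16 in controls. It reached 2.01, 2.52 and 2.97 after 1 Gy of neutrons, and 2.25, 1.40, 1.61, 4.21 and 2.91 after 4 Gy of x-rays. Both groups lay above the controls, but the x-irradiated mice differed among themselves by more than the neutron mice, and the SE was 0.46 against 0.21 for differences of 2.59 and 2.63. Ifit2 rose by 1.59 after neutrons, 1.36 after 4 Gy of x-rays and 0.92 after 1 Gy of x-rays. Its 4 Gy x-ray call held in 7 of 12 other settings and 2 of 10 leave-one-out fits. The 1 Gy x-ray call held in 3 of 12 and 2 of 11.

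The remaining effectors include the myxovirus GTPases and membrane proteins. Mx1 was at -0.87, -0.75, -0.47, 0.12 and -0.70 in controls and at 0.94, 1.5 and 1.99 after neutrons, with no overlap and a difference of 1.96 (SE 0.23, adjusted p = 0.000277). After 4 Gy of x-rays it was at 0.53, -0.04, 1.03, 1.18 and 1.24, where 1 mouse fell below the highest control, and the difference was 1.32 (SE 0.28, adjusted p = 0.00208). This call held in 8 of 12 other settings and 3 of 10 leave-one-out fits. Bst2 encodes tetherin, which holds budding virus on the cell. Its controls were at 1.48, 1.65, 1.68, 2.27 and 1.34, the neutron mice at 2.78, 3.21 and 3.87, and the mice given 4 Gy of x-rays at 3.69, 4.37, 4.66, 3.14 and 3.45. Both exposed groups lay above the controls. The rise was 1.55 (SE 0.22, adjusted p = 0.000687) after neutrons and 2.17 (SE 0.30, adjusted p = 0.000183) after x-rays. Ifitm3, which restricts virus entry from endosomes, rose by 1.96 and 2.12. Mx2 rose by 1.55 and 1.40 in the same order. Eif2ak2, the kinase PKR that stops translation on double-stranded RNA, rose by 1.23 after neutrons, and Samd9l, a restriction factor, differed by -0.07.

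Rsad2, which encodes viperin, an enzyme that makes a chain-terminating nucleotide, went the other way. Its controls were at 6.52, 6.81, 6.91, 7.62 and 7.34. The 1 Gy neutron mice were at 4.56, 5.31 and 6.80, the 1 Gy x-ray mice at 4.33, 4.92 and 6.27, and the 4 Gy x-ray mice at 5.02, 3.92, 3.53, 5.92 and 4.61. Both x-ray groups lay wholly below the controls, and the neutron mice overlapped them. Rsad2 fell by 1.93 (SE 0.36, adjusted p = 0.00607) after 1 Gy and by 2.44 (SE 0.41, adjusted p = 0.00053) after 4 Gy of x-rays. The neutron difference of -1.44 (SE 0.42) was not called (adjusted p = 0.0177).

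The oligoadenylate synthetase family holds enzymes that make the messenger that activates RNase L. Of its 5 members, 4 were called higher after 1 Gy of neutrons, 3 after 4 Gy of x-rays and 0 after 1 Gy of x-rays. Oas1a was at 1.56, 2.45, 1.84, 2.98 and 1.80 in the controls. The neutron mice had 3.68, 4.29 and 5.23, and the 4 Gy x-ray mice 3.63, 3.36, 4.04, 5.61 and 4.19. All were above the controls, by 2.15 (SE 0.32, adjusted p = 0.000801) and 2.04 (SE 0.41, adjusted p = 0.00156). Oasl2 was at 1.94, 2.08, 1.5, 3.17 and 1.94 in the controls. It was at 4.10, 4.54 and 5.16 after neutrons, a difference of 2.42 (SE 0.29, adjusted p = 0.000265). The levels after 4 Gy of x-rays were 4.15, 3.31, 3.32, 6.12 and 4.52, also without overlap. The difference of 2.16 with an SE of 0.50 was not called there (adjusted p = 0.00379). Oasl1 rose by 2.74 and 2.84 and Oas2 by 2.62 and 2.34 after neutrons and 4 Gy of x-rays. Oas3 was the exception, with differences of 0.60 (SE 0.37) and -0.20 (SE 0.49) that were not called.

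ISG15 is a ubiquitin-like protein that is joined to other proteins, and USP18 removes it and also blocks the interferon receptor. The transcripts of the pair moved differently at day 1. Usp18 was at -0.43, 0.28, -0.16, 0.64 and -0.17 in the controls. It was at 1.88, 2.44 and 2.71 after 1 Gy of neutrons and at 2.05, 1.98, 2.43, 3.10 and 2.13 after 4 Gy of x-rays. Neither group overlapped the controls, and the rises were 2.32 (SE 0.21, adjusted p = 7.1e-05) and 2.31 (SE 0.26, adjusted p = 6.6e-05). Isg15 was at 6.03, 6.60, 5.94, 7.00 and 6.72 in the controls. It was at 4.76, 5.79 and 6.56 after neutrons and at 5.35, 4.94, 4.53, 6.24 and 5.53 after 4 Gy of x-rays, overlapping the controls in both. The differences of -0.77 (SE 0.36) and -1.14 (SE 0.32) were not called (adjusted p = 0.102 and 0.0102). Herc6, a candidate ligase of the same system, differed by 0.45 (SE 0.16) after neutrons and was not called, while its other detected probe was 0.99 higher and called.

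Of the PARP family and its ubiquitin ligase partner Dtx3l, 3 of 4 were called higher after 1 Gy of neutrons and 1 after 4 Gy of x-rays. Parp12, which attaches ADP-ribose to proteins at stress granules, rose by 1.96 and 1.84, and Parp14 by 0.79 and Parp9 by 0.65 after neutrons. Dtx3l differed by 0.23 and was not called. Of the guanylate-binding GTPases, Gbp2 rose by 1.36 after neutrons and Gbp3 differed by 0.27, which was not called. Of the other 7 members, 6 were called higher after neutrons. Rtp4, a chaperone of receptors, rose by 2.44, Lgals3bp, a secreted glycoprotein, by 1.83, Cmpk2, a mitochondrial nucleotide kinase, by 1.53 and Xaf1, a promoter of apoptosis, by 1.02. The other detected probe of Xaf1 went the opposite way, with differences of -0.44 after neutrons and -1.27 after 4 Gy of x-rays that were not called.

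Ifi35 rose by 0.71 after 1 Gy of neutrons. Ifi27l2a, a small membrane protein gene, was at 5.63, 5.89, 5.50, 5.76 and 5.66 in the controls. It was at 6.56, 7.07 and 7.30 after neutrons and at 6.65, 6.17, 6.49, 7.57 and 6.91 after 4 Gy of x-rays, above all controls in both. Sp100, a nuclear body protein gene, went down like Rsad2. It was lower by 0.70 (SE 0.11, adjusted p = 0.00388) after 1 Gy of x-rays and by 1.46 (SE 0.26, adjusted p = 0.000873) after 4 Gy of x-rays, and its difference after neutrons was -0.59 (SE 0.31), not called. Ifi44, left out by the detection filter, was above background in 2 of 5 day 1 controls, in 6 of 6 mice after 1 Gy of neutrons and in 5 of 5 after 4 Gy of x-rays. With no detection filter its log2 differences were 2.06 and 2.42, which are given without a test because 3 of the 5 controls were not well above background.

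**Figure D3:**
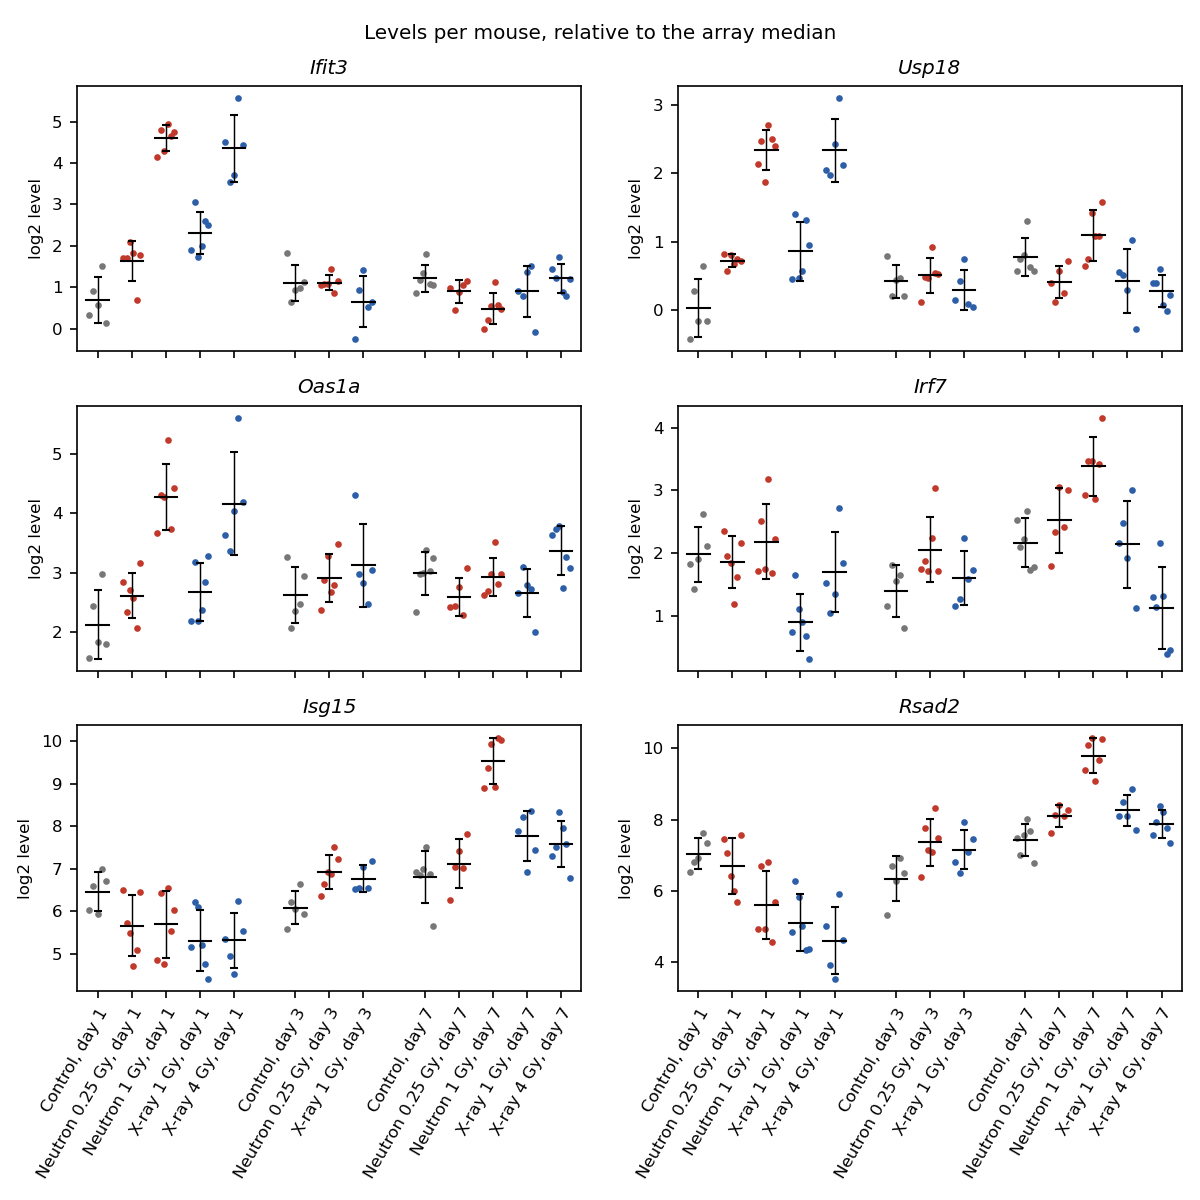
Log2 level relative to the array median (vertical axis) of Ifit3, Usp18, Oas1a, Irf7, Isg15 and Rsad2 in each mouse, by group and day (horizontal axis), with points for mice and bars for the group mean ± SD. Ifit3, Usp18 and Oas1a were highest at day 1 after 1 Gy of neutrons and 4 Gy of x-rays, and Isg15 and Rsad2 were highest at day 7 after 1 Gy of neutrons.

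The irradiated groups were also compared with each other. Neutrons were given at a lower dose rate, on a rotating wheel, and x-rays on another machine. Beam quality, dose rate and handling therefore cannot be told apart in these comparisons. At the same nominal dose of 1 Gy, 20 of 38 members were higher after neutrons than after x-rays at day 1 and 0 lower (52.6%), where 9.62% of all genes were called (1.28% higher, 8.34% lower). All 38 log2 differences were above 0, from 0.00 to 2.30 with a median of 0.80. The largest called differences were those of Ifit3 at 2.30 (SE 0.23, adjusted p = 0.00035), Oasl2 at 1.98, Oasl1 at 1.78 and Oas3 at 1.77. For Oas3 the x-ray mice lay at -0.89 to -0.26 and the neutron mice at 0.36 to 2.13, and the x-ray mice were also below every control (-0.08 to 1.46), a difference of -1.18 (SE 0.28) that was not called (adjusted p = 0.0163). Irf7 was 1.28 higher after neutrons (SE 0.28, adjusted p = 0.00786). Scan date bore on this comparison, because only 2 neutron and 4 x-ray arrays shared a date. Within that date the 20 differences all kept their sign, with a member median of 0.91, but 0 were called there or with the date as a block.

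Against 4 Gy of x-rays at day 1 the same neutron mice showed no called member. Differences ran from -0.63 (Bst2, SE 0.29) to 1.00 (Rsad2, SE 0.52) with a median of 0.16, and 3 had an unadjusted p below 0.05. The random variance test also called 0, and 0.0311% of all genes were called. The doses of this pair differ, so the values stand side by side only. The difference was 0.24 (SE 0.33) for Ifit3, 0.01 (SE 0.23) for Usp18 and 0.11 (SE 0.40) for Oas1a.

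At day 3 blood of the 2 lower exposures was compared with controls. After 0.25 Gy of neutrons 1 member was called, Ifitm3, which was 1.03 higher (SE 0.23, adjusted p = 0.0495), where 1.54% of all genes were called (0.547% higher, 0.994% lower). Its levels were 5.20, 5.94 and 6.28 against 4.57 to 5.26 in the controls, with overlap, and the call was lost in 9 of 11 leave-one-out fits, including those without any 1 control. After 1 Gy of x-rays limma and the random variance test called 0 members, with 7 at an unadjusted p below 0.05 and 1.61% of all genes called (1.25% higher, 0.354% lower). Without replicate 1 of the x-ray mice 2 were called, and without replicate 1 of the controls 1. The medians of the members' differences were 0.09 and 0.08. Oas1a was at 4.32, 2.98, 2.84, 2.47 and 3.04 after x-rays against 3.27, 2.08, 2.36, 2.48 and 2.95 in the controls, and Ifit3 at -0.26, 0.93, 1.41, 0.51 and 0.64 against 1.82, 0.64, 0.94, 0.98 and 1.13, each with overlap.

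By day 7 fewer members were raised, and Ifit3 was not among them. After 1 Gy of neutrons 11 of 38 members were called higher and 1 lower (31.6%), where 36.2% of all genes were called (18.4% higher, 17.8% lower), so the share of members called was no larger than that of all genes. The median member differed by 0.10. In this comparison 8 members had all irradiated mice above all controls and 0 below, where 34.8% of all genes did not overlap. Ifit3 had 0.00, 0.50 and 1.12 as lowest, median and highest, against 0.86, 1.12 and 1.80 in the day 7 controls, and its difference of -0.74 (SE 0.20) was not called (adjusted p = 0.00715). Usp18 differed by 0.32, Oas1a by -0.06 and Bst2 by -0.31, none of them called. Of the 28 members called higher at day 1, 5 (17.9%) were also called higher at day 7, and these made 45.5% of the 11. Isg15, which had not risen at day 1, was the most raised. Its controls had 5.65, 6.89 and 7.52 as lowest, median and highest, and the neutron mice had 8.90, 9.65 and 10.07, all above them. The difference was 2.74 (SE 0.31, 6.66-fold, adjusted p = 1e-05), and a second probe of the gene gave 2.78.

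Rsad2, whose difference after 1 Gy of neutrons was not called at day 1, was at 9.08, 9.87 and 10.30 at day 7. The day 7 controls had Rsad2 at 6.79, 7.53 and 8.02. It was 2.37 higher (SE 0.26, adjusted p = 8e-06) with no overlap. Oas3 was 2.42 higher (SE 0.21, adjusted p = 2e-06), with 2.38, 2.91 and 3.73 against 0.26, 0.54 and 0.80. Sp100 was 1.71 higher (SE 0.16, adjusted p = 2e-06), with 0.70, 1.17 and 1.39 against -0.86, -0.61 and -0.36. Irf7 was at 2.86, 3.44 and 4.16 against 1.72, 2.15 and 2.67, again without overlap, and 1.22 higher (SE 0.24, adjusted p = 0.0007). The other members called higher were Ifit1 (1.42), Cmpk2 (1.37), Dtx3l (1.31), Oasl2 (1.05), Ifitm3 (0.93) and Xaf1 (0.93), and Samd9l was 0.91 lower on the log2 scale. Ifit1, Cmpk2, Oasl2, Ifitm3 and Xaf1 were those called higher on both days.

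These day 7 calls depended on how the arrays were centred. Other ways of scaling gave 8 higher and 6 lower (75th percentile) and 9 higher and 5 lower (quantile normalisation), and the deposited table of log2 values by column name gave 1 higher and 11 lower. With normexp background correction 0 were higher and 1 lower. With the arrays centred on the spike-in controls the median of all genes shifted by -2.10, and 0 members were higher and 25 lower. Relative to that shift the median member was 0.16 higher, and the values of Isg15, Oas3 and Rsad2 were 0.69, 0.37 and 0.32, not called. Irf7, Sp100, Ifit1 and 5 other members turned negative under that centring. Only 1 neutron array shared a scan date with the day 7 controls. Within that date all 12 members called kept their sign, but that array is among those that made the calls. The member median within the date was -0.35 and that of all genes -0.14, while over all arrays the member median was 0.10. With the date as a block, where the contrast rests on that 1 array, 2 were called higher.

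Fewer members were called after the other exposures at day 7. After 4 Gy of x-rays 3 members were called higher and 1 lower (10.5%), where 15.8% of all genes were called (7.71% higher, 8.11% lower). They were Oas3 (1.76 higher, SE 0.19, adjusted p = 3e-05), Lgals3bp (1.22, SE 0.12), Parp12 (1.22, SE 0.17) and Mx2 (0.68 lower, SE 0.14, adjusted p = 0.00232). Lgals3bp lay at 4.14 to 4.44 in the 6 irradiated mice and at 2.79 to 3.30 in the controls. In this comparison 16.3% of all genes did not overlap. After 1 Gy of x-rays 1 member was called, Oas3, which was 1.16 higher (SE 0.23, adjusted p = 0.0152), where 3.73% of all genes were called. The call was lost without x-ray replicate 2. After 0.25 Gy of neutrons limma and the random variance test called 0, with 8 at an unadjusted p below 0.05 and 0.565% of all genes called. These counts too rest on median centring. With spike-in centring, which shifted the median of all genes by -1.13 after 0.25 Gy of neutrons and by -0.95 after 1 Gy of x-rays, 20 and 6 members were called lower and 0 higher. After 4 Gy of x-rays, with a shift of 0.18, 5 were higher. No x-ray array of day 7 shared a scan date with a control, so date and exposure cannot be told apart there. Isg15 was at 7.89, 8.23, 6.94, 8.35 and 7.45 after 1 Gy of x-rays and at 6.79, 7.55 and 8.33 after 4 Gy of x-rays, both overlapping the controls.

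Set directly against the x-ray groups at day 7, 3 members (7.89%) were higher after 1 Gy of neutrons than after 1 Gy of x-rays. This was a smaller share than the 20% of all genes called (13.1% higher, 6.98% lower). The 3 members were Isg15 (1.77, SE 0.31, adjusted p = 0.00138), Rsad2 (1.54, SE 0.27) and Sp100 (1.03, SE 0.22). None was called with the replicate number or the scan date as a block. Counts without 1 mouse ran from 2 to 6, the latter without x-ray replicate 4 and 5 without neutron replicate 1. Against 4 Gy of x-rays 7 were higher and 1 lower (21.1%), a smaller share than the 37.3% of all genes called (22.7% higher, 14.6% lower). Irf7 led at 2.26 (SE 0.30, adjusted p = 3.2e-05), followed by Isg15 at 1.96, Rsad2 at 1.92 and Sp100 at 1.37. Irf7 was at 0.39, 1.21 and 2.15 in the 4 Gy x-ray mice, below or among the lower controls, and its difference from the controls of -1.04 (SE 0.29) was not called (adjusted p = 0.0136). Lgals3bp was 1.01 lower after neutrons. With spike-in centring no member was higher in this comparison and 34 were lower, as the median of all genes then shifted by -2.39.

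The change of each exposure's effect between days 1 and 7 was tested as a difference of differences. For 1 Gy of neutrons 5 of 38 members had a larger effect at day 7 and 20 a smaller one (65.8%), where 24.1% of all genes were called (16.1% higher, 7.95% lower). The share of members with a larger effect was thus below that of all genes. Members with a larger effect were Rsad2 (3.81, SE 0.51, adjusted p = 3.6e-06), Isg15 (3.50, SE 0.49), Sp100 (2.30), Oas3 (1.82) and Dtx3l (1.08). Those with a smaller one were led by Ifit3 (-4.64, SE 0.32, adjusted p = 4.53e-09), Oasl1 (-3.07), Oas2 (-2.60) and Mx1 (-2.58). For 4 Gy of x-rays 3 had a larger effect at day 7 and 13 a smaller one (42.1%), where 19.8% of all genes were called (11.3% higher, 8.46% lower). Here too the share with a larger effect was below that of all genes. The 3 were Rsad2 (2.89), Isg15 (1.92) and Sp100 (1.80). For 1 Gy of x-rays 4 were larger, namely Rsad2 (2.77), Oas3 (2.33), Isg15 (2.11) and Sp100 (1.38), and 6 smaller, led by Ifit3 (-1.93), where 7.19% of all genes were called (5.04% higher, 2.15% lower). Under each of these 3 exposures Isg15, Rsad2 and Sp100 were thus called in the direction opposite to Ifit3. The change after 0.25 Gy of neutrons was not tested. With spike-in centring 0 members had a larger effect at day 7 and 34 a smaller one after 1 Gy of neutrons, where the median of all genes shifted by -2.63, and 0 and 12 after 1 Gy of x-rays, where it shifted by -1.12.

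Over the 10 comparisons with controls, 35 of the 38 members (92.1%) were called at least once, where 61.3% of all genes were. The 3 never called by their brightest probe were Gbp3, Herc6 and Stat2. At day 1 alone 31 (81.6%) were called, where 34.1% of all genes were. Ifit1, Ifitm3 and Lgals3bp were called most often, in 4 comparisons each. The members called higher in 1 comparison and lower in another were Irf7, Mx2, Rsad2 and Sp100. Of the 10 members with more than 1 detected probe, 16 calls were made by the brightest probe. The other probe made 10 of them in the same direction and 0 in the opposite direction, and in 1, that of Xaf1 at day 1 after 1 Gy of neutrons, its difference had the opposite sign. The other probe alone made 5 further calls, all with the sign of the brightest probe. For Herc6 these were 0.99 and 1.52 after 1 Gy of neutrons at days 1 and 7 and 1.09 after 4 Gy of x-rays at day 7, and the others were 1 of Dtx3l and 1 of Lgals3bp.

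The mean of the members in each mouse, relative to the controls of its day, describes how far mice of a group differed. The day 1 controls had -0.22, -0.09 and 0.40 as lowest, median and highest. After 1 Gy of neutrons the values were 0.88, 1.22 and 1.67 (mean 1.25, SD 0.27, n = 6), so all 6 mice responded within a narrow range. In the 4 Gy x-ray group they were 0.57, 0.83 and 1.95 (mean 1.05, SD 0.53, n = 5), and the highest value was that of replicate 4, with the other 4 mice at 0.57 to 1.10. The same mouse held the highest level of its group for Ifit3, Ifit1, Oas1a, Oasl2, Irf7 and Usp18 but the lowest for Bst2. The 1 Gy x-ray mice had 0.01, 0.24 and 0.68, and after 0.25 Gy of neutrons -0.22, 0.31 and 0.55. At day 7 the 1 Gy neutron mice were at -0.12, 0.36 and 0.64, and the 4 Gy x-ray mice at -0.08, 0.10 and 0.47.

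**Figure D4:**
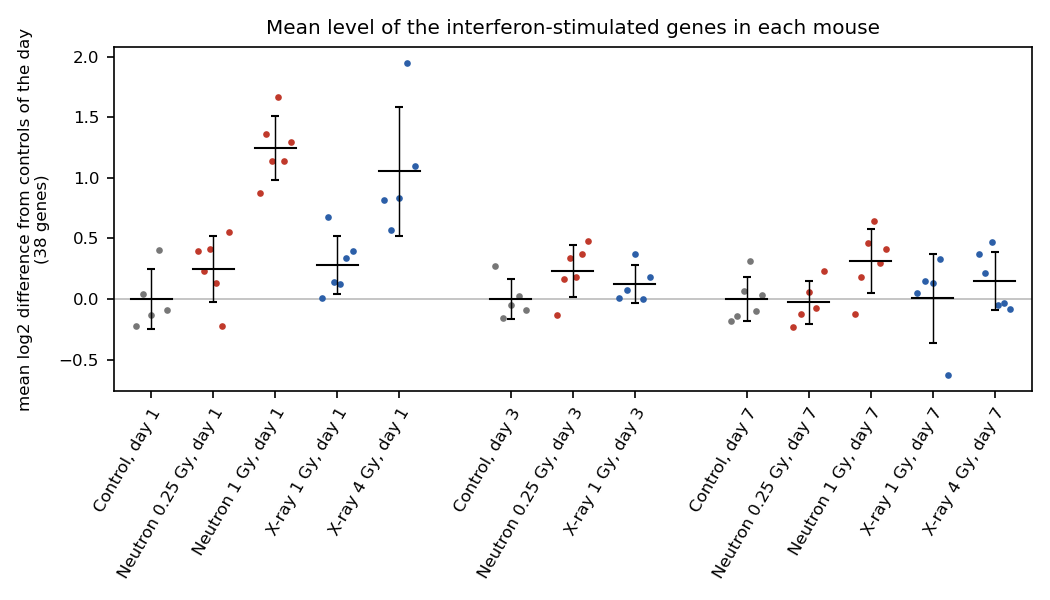
Mean log2 level of the members in each mouse relative to the mean of the control mice of the same day (vertical axis), by group and day (horizontal axis), with points for mice and bars for the group mean ± SD. At day 1 the 6 mice given 1 Gy of neutrons sat between 0.88 and 1.67 and the 5 given 4 Gy of x-rays between 0.57 and 1.95, above the highest control at 0.40.

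With the group means removed, the members still rose and fell together from mouse to mouse. Over the 72 mice the median of the 666 pairwise correlations among the 37 members with a value on every array was 0.448. It was 0.004 over all 15338 such genes, a description of arrays that share normalisation and cell makeup. The spread itself was ordinary. The median SD within groups was 0.421 for the members and 0.422 for all genes. Ifit1, Oas2 and Oasl2 had the highest median correlation with the other members (0.621, 0.614 and 0.612), whereas Bst2 ran against them (-0.331) and Mx2 stood apart (0.044). Rsad2 (0.641) and Oas3 (0.619) varied most within groups, and Parp9 (0.225) least.

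Genes that act before the members were looked up in the same way. Of 18 interferon genes only 6 were detected and tested, and the gene of interferon β was not among them. Ifng, the type II interferon of NK and T cells, was higher after 1 Gy of neutrons (1.10) and after 1 Gy of x-rays (1.29) at day 1. On that day the 4 Gy x-ray mice had 0 of the 6 interferon genes called higher and 1 called lower. Ifna14 (2.16) and Ifnab (1.93) were higher at day 7 after 1 Gy of neutrons. Of 10 receptor and kinase genes Ifnar1 was lower after 1 Gy of neutrons at day 1 (-0.58) and day 7 (-0.73), and Ifnar2 was higher after 4 Gy of x-rays at day 1 (0.82) and 1 Gy of neutrons at day 7 (1.24). After 4 Gy of x-rays at day 7, 1 of the 10 was called lower. Of 11 upstream sensor and relay genes Mavs, the mitochondrial adaptor of the RNA sensors, was higher after 1 Gy of neutrons (0.98) and 4 Gy of x-rays (1.43) at day 1, while Sting1, the adaptor of the DNA sensor, was lower (-1.07 and -1.97). In all, 2 of the 11 were called higher and 2 lower after 4 Gy of x-rays at day 1. At day 7 after 1 Gy of neutrons, where 36.2% of all genes were called, Tlr7 (3.85) and Mavs (1.67) were higher and Irf3 (-0.99) and Sting1 (-0.69) lower. With spike-in centring Tlr7 was at 1.80, Mavs at -0.38, Ifna14 at 0.11, Ifnab at -0.12 and Ifnar2 at -0.81, none of them called, while Irf3, Sting1 and Ifnar1 were called lower there too. Of 6 negative regulators Socs1 was higher after 1 Gy of x-rays (0.88) and Ptpn6 lower (-0.87) at day 1. Among the 6, 1 was also called lower after 4 Gy of x-rays at day 1, and 1 after 1 Gy of neutrons at day 7.

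Genes best known as targets of interferon γ moved with the members at day 1. Of 12 tested, 6 were called higher after 1 Gy of neutrons, among them Cxcl10 (1.75), a chemokine, and Igtp (1.60), a GTPase that guards against intracellular parasites. In the 4 Gy x-ray mice 5 were higher, led by Iigp1 (2.44) and Cxcl10 (1.82), and 3 after 1 Gy of x-rays, Igtp (1.08), Gbp6 (1.03) and Socs1 (0.88). At day 7 after 1 Gy of neutrons 2 were higher, Gbp7 (1.87) and Gbp5 (0.67), and 2 lower, Gbp4 (-0.97) and Socs1 (-0.74). With spike-in centring Gbp7 was at -0.18, not called, and Gbp5 at -1.38, called lower.

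Transcripts that mark blood cell types differed in the same mice, and their part in the results was not tested. Cell counts were not analysed here. Markers of all the blood cell types looked up were detected. All 5 B cell markers tested were called lower after 1 Gy of neutrons and 4 Gy of x-rays at day 1. Their mean level was 3.88 to 4.70 in day 1 controls, 0.92 to 2.72 after neutrons and -0.14 to 1.61 after 4 Gy of x-rays. Of 6 T cell markers 1 was lower after neutrons, and 3 were lower and 1 higher after 4 Gy of x-rays. Of 5 markers of plasmacytoid dendritic cells, which make much interferon, 3 (Tcf4, Ccr9 and Irf8) were lower and 1 (Bst2, itself a member) higher in both. The remaining marker, Siglech, was called in neither. The list's level was 2.56 to 2.91 in controls, 2.14 to 2.35 after neutrons and 1.86 to 2.18 after 4 Gy of x-rays. The NK, neutrophil and platelet markers, 5 tested of each, had 0 called in these comparisons by limma, and 1 of 5 monocyte markers was lower after 4 Gy of x-rays.

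Reticulocyte markers, 6 of 6 tested, are given beside Isg15, Rsad2 and Sp100 because their group levels moved in the same direction on both days. Their mean level was 2.56 to 3.65 in day 1 controls, 0.07 to 2.49 after 1 Gy of neutrons and -1.42 to 0.70 after 4 Gy of x-rays. At day 7 it was 2.75 to 3.57 in controls, 5.33 to 6.58 after 1 Gy of neutrons and 3.65 to 4.81 after 4 Gy of x-rays. At day 1 these markers were lower in 1 of 6 (neutrons) and 4 of 6 (4 Gy of x-rays), and at day 7 they were higher in 6 of 6 and 2 of 6. Other markers also differed at day 7 after 1 Gy of neutrons. Of 5 B cell markers 4 were lower, with a mean level of 2.30 to 2.74 against 4.29 to 4.54 in controls, and of 6 T cell markers 2 were lower (2.98 to 3.56 against 3.44 to 3.95). Of 5 neutrophil markers 2, S100a9 and Cxcr2, were higher (4.33 to 5.44 against 3.23 to 4.29). In the monocyte, platelet and plasmacytoid dendritic cell lists 1 of 5 was higher, and 0 of 5 NK markers was called by limma. The part of reticulocytes and of these other cells in the values of Isg15, Rsad2 and Sp100 was not tested.

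Liver transcripts stood out in some blood samples. The mean level of 5 hepatocyte markers tested (of 8 listed) was 6.09, 0.90, 6.93, 8.16 and 1.85 in the 5 day 1 controls. It was 8.89 to 9.58 after 4 Gy of x-rays and 8.08 to 9.06 in 5 of the 6 mice given 1 Gy of neutrons. The sixth, replicate 4, was at 1.01 and had the highest member mean of that group, 1.67. With day 1 restricted to mice above 4 on this scale, which left 3 controls, 22 members were called higher after 1 Gy of neutrons, 10 higher and 1 lower after 4 Gy of x-rays and 0 after 1 Gy of x-rays. Shares of all genes called in these mice are not given, so losses among members cannot be told from general ones.

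**Figure D5:**
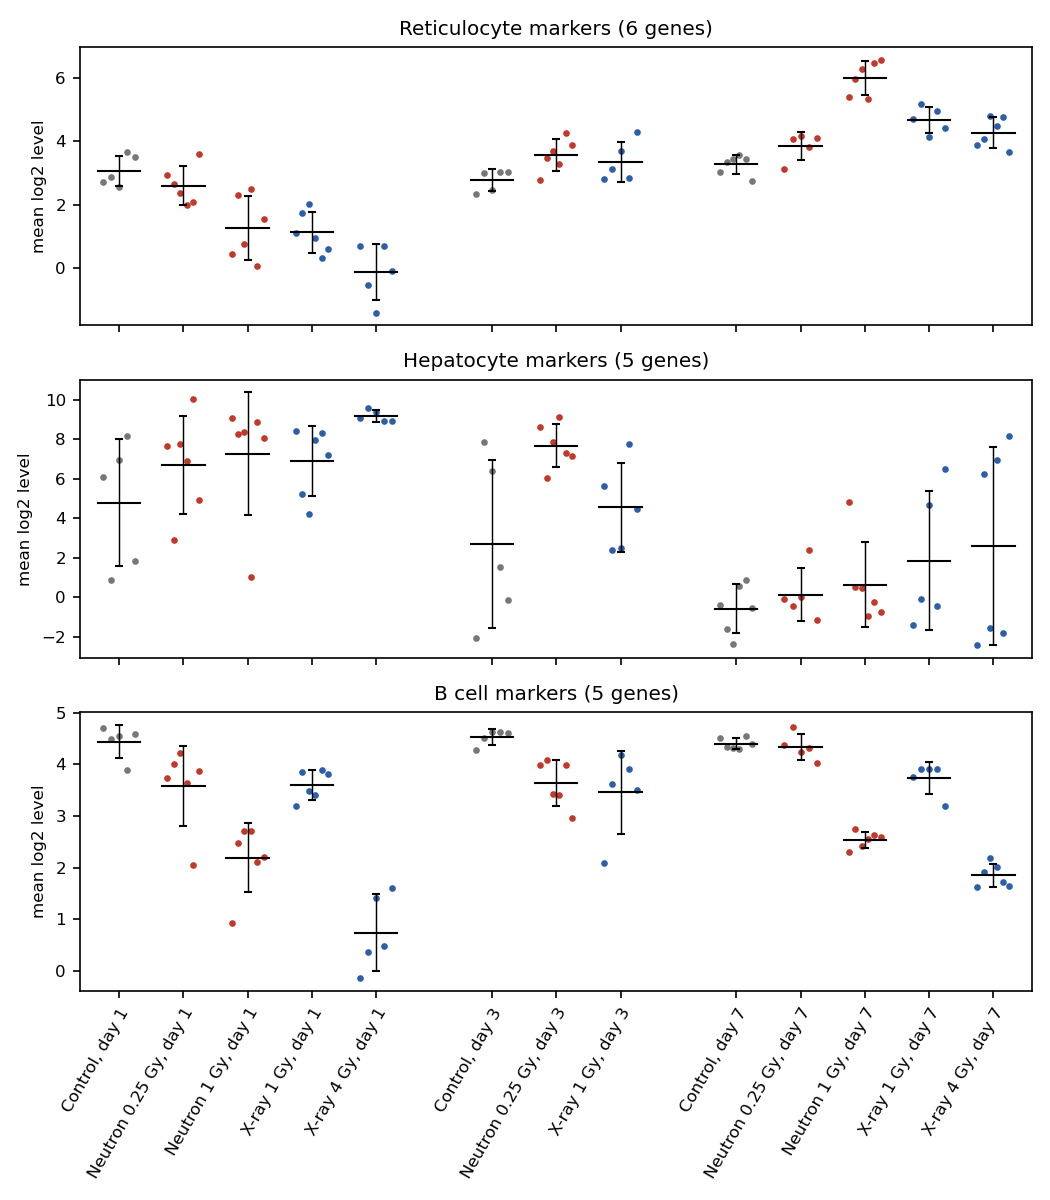
Mean log2 level relative to the array median (vertical axis) of the reticulocyte, hepatocyte and B cell markers in each mouse, by group and day (horizontal axis), with points for mice and bars for the group mean ± SD. Reticulocyte markers reached 5.33 to 6.58 at day 7 after 1 Gy of neutrons against 2.75 to 3.57 in controls, B cell markers were lowest in the 4 Gy x-ray mice at day 1, and hepatocyte markers varied between mice of a group.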

How the data were processed

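Blood RNA of 72 mice was hybridised to 1-colour Agilent arrays, 1 mouse per array, and replicates are separate mice. Per the labels the authors scanned and extracted the deposited intensities with Agilent Feature Extraction 12.0.2, which subtracts background (gProcessedSignal). Here spots marked as outliers were left out, spots of a probe averaged, and log2 values centred on the median of 19808 detected probes. A probe was detected where a share below 0.25 of the day 1 and day 7 arrays lacked signal well above background. limma 3.58.1 in R 4.3.3 tested each comparison, 2-sided, on its own groups with Benjamini-Hochberg adjustment over 16098 genes, and the code was tested on simulated data. The authors also deposited a table of log2 values, in which 12 of 72 columns followed the array of their own sample and 60 another's; it served only as an alternative. Its columns, taken by name, gave a larger median SE than the arrays in 17 of 17 comparisons.

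The members and the lists of ligands, receptors and kinases, sensors and relay genes, brakes, interferon γ targets and cell markers were chosen with earlier results of these data known. Genes named were 15 set members, up to 4 called members with the largest rise or fall in each comparison, and members called in 4 or more comparisons. Alternatives varied background correction, centring, filters, test, block and mice. Precision was limited by the number of arrays, 5 or 6 a group.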

Additional observations from a re-analysis of the deposited data

Results flagged for a closer look

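Single mice far from the rest of their group were looked for in 208 sets of a group and a measure, and 21 were found, where the limit used is one that chance passes in about 1 of 20 sets. The sets share mice and are not independent. Replicate 5 at day 1 after 0.25 Gy of neutrons accounted for 7 of them. It was the lowest of its 6 mice for Ifit1 (-0.585), Ifit3 (0.698), Mx1 (-1.087), Ddx58 (1.699) and Ifi27l2a (4.629), and the highest for Ifih1 (1.657) and Bst2 (3.98). Its hepatocyte markers were at 10.05.

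Replicate 5 at day 7 after 1 Gy of x-rays had a member mean of -0.628, with Mx1 at -1.02 and Ifi27l2a at 5.139, the lowest of its group in each. Replicate 1 at day 3 after 1 Gy of x-rays was lowest for Ifih1 (-1.817) and Ddx58 (1.096). In the 4 Gy x-ray group at day 1, replicate 4 was highest for Ddx58 (3.451), and replicate 2 after 1 Gy of x-rays for Ifit1 (1.507). Among controls, replicate 4 at day 1 stood apart for Ifih1 (0.631), replicate 4 at day 7 for Usp18 (1.308) and replicate 6 at day 7 for Isg15 (5.653). At day 7 after 0.25 Gy of neutrons single mice stood apart for Ifit1 (-0.195), Irf9 (3.133), Ddx58 (2.464) and Bst2 (0.849).

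The effect of an exposure differed between days 1 and 7, by limma's test of the difference, in 25 members after 1 Gy of neutrons, 10 after 1 Gy of x-rays and 16 after 4 Gy of x-rays.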

How the results depend on the processing

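The share of spots above background was lowest on the day 7 arrays of 1 Gy of neutrons. The cause of each change below was not tested. Counts are members called, in the order of comparison named. Shares of all genes called are not given for these settings, so losses among members cannot be told from general ones. With normexp background correction there were 18 at day 1 for 1 Gy of neutrons, 5 for 4 Gy and 0 for 1 Gy of x-rays. The same correction gave 4 for 1 Gy of neutrons against 1 Gy of x-rays at day 1, 0 for 0.25 Gy of neutrons at day 3, and at day 7 1 for 1 Gy of neutrons, 0 for 1 Gy and 1 for 4 Gy of x-rays and 1 for neutrons against 4 Gy of x-rays. It gave 3 and 3 for the change between days after 1 Gy x-rays and 4 Gy x-rays. Spike-in centring gave 3 for 1 Gy of x-rays and 11 for 1 Gy of neutrons against it at day 1, and 0 for 0.25 Gy of neutrons at day 3. At day 7 it gave 20 for 0.25 Gy and 25 for 1 Gy of neutrons, 6 for 1 Gy of x-rays, and 5 and 34 for neutrons against 1 Gy x-rays and 4 Gy x-rays, all of these lower. Spike-in centring also turned members at day 7 after 1 Gy of neutrons to Ifitm3 -1.12, Oasl2 -1, Dtx3l -0.74, Irf7 -0.83, Xaf1 -1.12, Ifit1 -0.63, Cmpk2 -0.68 and Sp100 -0.34. Normexp turned Ifitm3 to -0.48, Oasl2 to -0.16 and Irf7 to -0.011. The deposited log2 table turned Ifitm3 to -0.51, Oasl2 to -0.092, Xaf1 to -0.05 and Ifit1 to -0.12. Quantile normalisation gave 0 for 0.25 Gy of neutrons at day 3 and 1 for 1 Gy of neutrons against 1 Gy of x-rays at day 7. The day 3 count was 0 with no detection filter and with the filter on spread too.

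Scan date as a block gave 0 for 0.25 Gy of neutrons at day 3, 2 for 1 Gy of neutrons at day 7, and 0 at days 1 and 7 for 1 Gy of neutrons against 1 Gy of x-rays. As a random block it gave 0 and 3 for 1 Gy of x-rays at days 1 and 3 and 4 for their change between days. The slide as a random block, the deposited table and the restriction on liver transcripts were chosen after seeing the data. The slide gave 2 and 1 for 1 Gy of x-rays at days 1 and 3, 6 for their change between days and 0 for 0.25 Gy of neutrons at day 3. Mice above 4 in liver transcripts gave 0 and 11 for 1 Gy x-rays and 4 Gy x-rays. The table gave 0 and 8 for those, 0 for 0.25 Gy of neutrons at day 3, 0 and 2 for 1 Gy x-rays and 4 Gy x-rays at day 7, 0 and 0 for neutrons against 1 Gy of x-rays at days 1 and 7, and 0 and 7 for the change after 1 Gy x-rays and 4 Gy x-rays. No x-ray group shared a scan date with its controls on any day, so date and exposure cannot be told apart in those comparisons. The date entered there as a random block, which does not separate them. For 4 Gy of x-rays at day 7 each group had a scan date of its own, and no such fit was made.

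With the replicate number of the labels as a block, 1 Gy of neutrons kept 24 calls at day 1. The block gave 2 and 0 for 1 Gy of x-rays at days 1 and 7, 0 for 0.25 Gy of neutrons at day 3 and 0 for neutrons against 1 Gy of x-rays at day 7. The numbers did not pair mice: 27 of 74 same-numbered pairs had correlated deviations above 0.1, from -0.532 to 0.639.

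The mean level of the members per mouse moved under spike-in centring to -1.07 for 0.25 Gy and -1.83 for 1 Gy of neutrons at day 7, 1.71 for 1 Gy of neutrons at day 1, and -0.35 and -0.86 for 1 Gy of x-rays at days 3 and 7. Normexp moved it to -0.48 and -0.35 for 0.25 Gy and 1 Gy of neutrons at day 7 and to 0.26 for 4 Gy of x-rays at day 1.

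Leaving out 1 mouse gave 26 to 28 calls for 1 Gy of neutrons, 4 to 9 for 1 Gy and 13 to 20 for 4 Gy of x-rays at day 1. At day 3 it gave 0 to 3 for 0.25 Gy of neutrons and 0 to 2 for 1 Gy of x-rays. At day 7 it gave 9 to 12 for 1 Gy of neutrons, 0 to 2 for 1 Gy and 4 to 6 for 4 Gy of x-rays. Neutrons against 1 Gy of x-rays gave 15 to 21 at day 1 and 2 to 6 at day 7, and against 4 Gy of x-rays 6 to 9 at day 7. All 74 calls of single members against controls held with the random variance test, 60 with the 75th percentile, 63 with quantile normalisation, 50 with spike-in centring, 33 with the deposited table and 25 with normexp.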
